A study of Homo sapiens with 4 samples.

Results

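Enzymes that write and erase marks on histones were examined in HepG2 and Huh7 cells after sonodynamic therapy (SDT). The group comprised 94 protein-coding genes, out of 19951 in the annotation used (GENCODE release 29). They were chosen by symbol alone. The symbols were HDAC, SIRT, KDM, PRMT, PRDM, SETD or KAT followed by a number, the KMT2 and KMT5 genes, and EZH1, EZH2, EHMT1, EHMT2, SUV39H1, SUV39H2, EP300 and CREBBP. The group is therefore wider than deacetylases, demethylases and methyltransferases, since it also holds acetyltransferases and the PRDM genes, many of which encode transcription factors.

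Histone tails carry acetyl and methyl groups on lysine and arginine. Acetyltransferases (KAT genes, EP300 and CREBBP) add acetyl groups and deacetylases (HDAC genes and sirtuins) remove them. SET-domain methyltransferases and PRMT enzymes add methyl groups, which KDM1 amine oxidases and Jumonji (JmjC) demethylases take off. JmjC enzymes need oxygen, iron and 2-oxoglutarate, sirtuins need NAD, and methyltransferases need S-adenosylmethionine, so that the family is tied to cell metabolism.

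HepG2 and Huh7 are long-established lines derived from human liver tumours. After removal of ribosomal RNA, 4 groups were sequenced as 1 library each, namely untreated HepG2 cells (group A), treated HepG2 cells (group B), untreated Huh7 cells (group C) and treated Huh7 cells (group D). The treatment was a nanobubble that carried the sonosensitizer HMME and the metabolic inhibitor lonidamine (LND), combined with low-frequency ultrasound; the interval between treatment and RNA isolation is not given in the sources used here. Nanobubbles, drugs and ultrasound were applied together, so their effects cannot be told apart. The files analysed were tables of GO terms and KEGG pathways with the Ensembl identifiers of the differentially expressed mRNAs under each, for group B vs. A and group D vs. C. A gene is called listed here when its identifier stood under at least 1 GO term, which requires that it had been called differentially expressed and that it carried a GO annotation. The tables hold no expression level, fold change, direction or depth, so neither rise nor fall can be given for any gene, and the cell lines could not be checked against marker genes. With 1 library per group no difference has a replicate check, and no test was made. In such bulk samples, fewer cells of a type and less RNA per cell cannot be told apart.

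Of the 94 genes, the HepG2 list held 19 (20.2%) and the Huh7 list 14 (14.9%). Among all protein-coding genes the shares were 23.9% for HepG2 cells and 21.9% for Huh7 cells. Over the GO background of the tables, that is the genes with a GO annotation, the shares were 21.6% and 19.7%. The HepG2 share of the enzyme genes was thus near that of all genes, and the Huh7 share was lower than either background. There were 6 enzyme genes listed in both cell lines (6.38%, against 11.4% of all protein-coding genes). They made up 31.6% of the enzyme genes listed in HepG2 cells and 42.9% of those listed in Huh7 cells. The corresponding shares for all listed protein-coding genes were 47.7% and 52.2%. A further 13 genes were listed in HepG2 cells only and 8 in Huh7 cells only, and 67 were listed in neither. Counted together, 27 of the 94 genes (28.7%) were listed in at least 1 cell line, against 34.3% of all protein-coding genes.

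**Figure D1:**
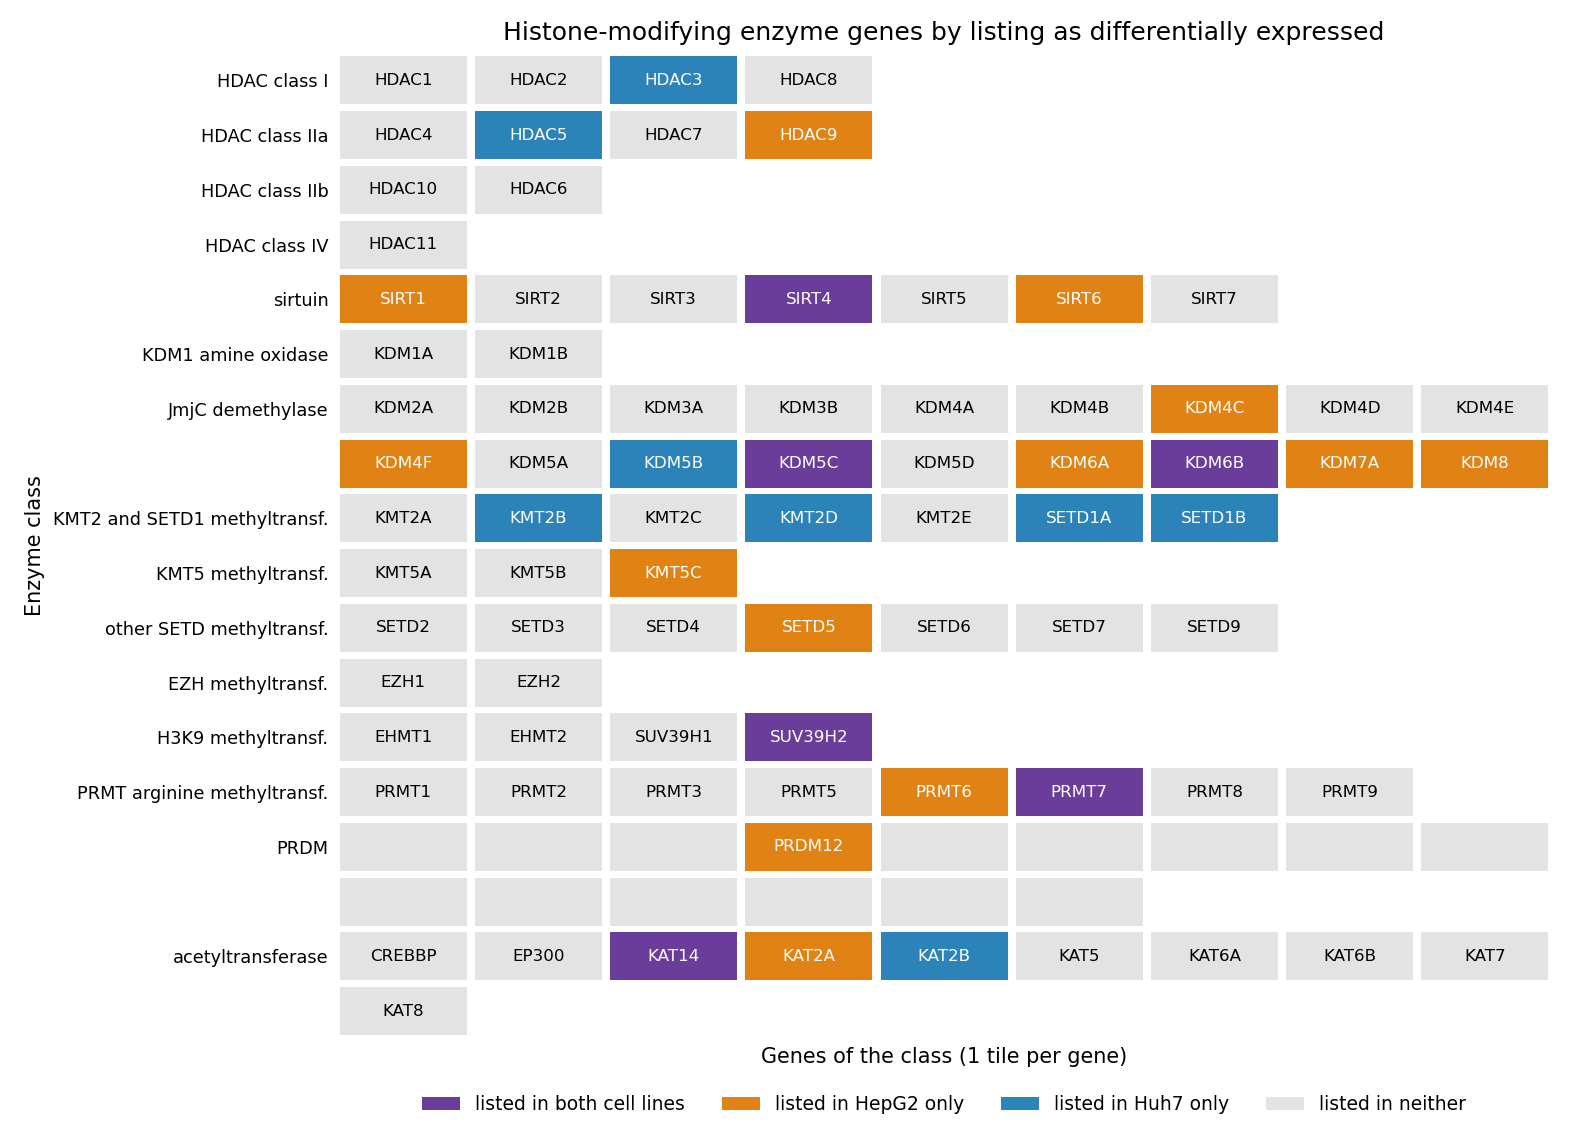
Each tile is 1 of the 94 enzyme genes, arranged in rows by enzyme class, and its colour gives the cell line in which it was listed as differentially expressed; tiles of unlisted PRDM genes carry no name. The KMT2 and SETD1 row holds 4 tiles listed in Huh7 cells only (blue). The JmjC rows hold 5 tiles listed in HepG2 cells only (orange), 1 in Huh7 cells only and 2 in both. The EZH, KDM1, HDAC class IIb and HDAC class IV rows hold no listed gene.

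The 6 genes listed in both cell lines came from 5 enzyme classes. SIRT4 (ENSG00000089163) encodes a mitochondrial sirtuin. KDM5C (ENSG00000126012) removes methyl groups from lysine 4 of histone H3, and KDM6B (ENSG00000132510) from lysine 27 of histone H3. SUV39H2 (ENSG00000152455) adds the methyl groups of heterochromatin at lysine 9 of histone H3. PRMT7 (ENSG00000132600) places single methyl groups on arginine. KAT14 (ENSG00000149474) belongs to the ATAC acetyltransferase complex. Whether these 6 genes moved the same way in the 2 cell lines cannot be read from the tables.

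The 250 bases upstream of the annotated start of these 6 genes are shown, because they are the genes that the cell lines had in common. The sequences are from RefSeq (GRCh38.p14), are written from 5′ to 3′ on the strand of the gene and end at the base before the start. Capitals mark every match to the 6 motifs searched on both strands. For SIRT4 and KDM6B the 30 bases after the RefSeq start were not found in a GENCODE transcript of the gene, so what is said of these 2 windows holds for the RefSeq start alone. Over all enzyme genes they were found for 64 of 84 windows.
SIRT4, chr12:120291939-120292188, plus strand: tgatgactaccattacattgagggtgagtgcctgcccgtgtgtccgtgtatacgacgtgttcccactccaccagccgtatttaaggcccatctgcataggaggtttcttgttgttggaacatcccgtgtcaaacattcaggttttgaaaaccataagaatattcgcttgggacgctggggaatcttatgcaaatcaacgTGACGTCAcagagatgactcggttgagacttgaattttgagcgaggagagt
SUV39H2, chr10:14878616-14878865, plus strand: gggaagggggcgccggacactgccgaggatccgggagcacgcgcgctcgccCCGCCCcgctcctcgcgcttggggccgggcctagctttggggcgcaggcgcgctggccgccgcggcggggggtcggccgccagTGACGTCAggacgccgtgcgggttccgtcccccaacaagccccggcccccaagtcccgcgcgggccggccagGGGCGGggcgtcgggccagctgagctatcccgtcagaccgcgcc
KDM5C, chrX:53225208-53225457, minus strand: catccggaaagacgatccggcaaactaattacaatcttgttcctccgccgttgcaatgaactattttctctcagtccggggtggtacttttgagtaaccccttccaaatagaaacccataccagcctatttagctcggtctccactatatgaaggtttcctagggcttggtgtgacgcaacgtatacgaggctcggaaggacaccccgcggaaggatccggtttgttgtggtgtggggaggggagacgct
KDM6B, chr17:7833967-7834216, plus strand: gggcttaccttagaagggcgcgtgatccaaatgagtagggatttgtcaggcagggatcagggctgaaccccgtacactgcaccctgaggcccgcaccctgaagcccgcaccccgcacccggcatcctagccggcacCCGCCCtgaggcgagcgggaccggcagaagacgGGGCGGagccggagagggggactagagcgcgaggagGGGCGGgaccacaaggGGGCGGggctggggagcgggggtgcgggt
PRMT7, chr16:68310769-68311018, plus strand: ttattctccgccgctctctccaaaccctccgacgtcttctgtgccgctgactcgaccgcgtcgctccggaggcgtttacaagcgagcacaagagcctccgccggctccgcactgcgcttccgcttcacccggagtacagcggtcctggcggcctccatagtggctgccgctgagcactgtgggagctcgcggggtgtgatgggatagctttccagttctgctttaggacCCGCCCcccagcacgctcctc
KAT14, chr20:18144849-18145098, plus strand: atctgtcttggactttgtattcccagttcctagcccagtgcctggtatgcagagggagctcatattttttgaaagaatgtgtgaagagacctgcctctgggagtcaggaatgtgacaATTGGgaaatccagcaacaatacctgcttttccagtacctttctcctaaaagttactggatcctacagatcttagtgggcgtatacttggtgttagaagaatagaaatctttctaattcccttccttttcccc

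The motifs were the GC box (GGGCGG), the CCAAT box (CCAAT), the TATA box (TATAAA), the cAMP response element (TGACGTCA), the AP-1 site (TGANTCA) and the core of the antioxidant response element (TGACNNNGC). A match to the AP-1 site can lie within a match to the last motif. Letter matches describe these windows and are not evidence of binding, and a missing match says only that these letters are not in the window. The cAMP response element was found upstream of SIRT4 and SUV39H2 and in no other window of the enzyme genes, that is in 2 of 84 windows (2.38%), against 2.30% of 14896 windows of protein-coding genes. The GC box was found 4 times upstream of KDM6B, 2 times upstream of SUV39H2 and 1 time upstream of PRMT7. It was present in 60.7% of the enzyme windows and in 56.9% of all windows. The TATA box was present in 1 of 84 enzyme windows (1.19%) against 8.97% of all windows. The KDM5C window held none of the 6 motifs. The number of CG dinucleotides ranged from 1 (KAT14) to 38 (SUV39H2) in the 6 windows, and its median was 23 over the 84 enzyme windows and 18 over all windows. Windows were found for 84 of the 94 genes; those without included HDAC5, KAT6A, KAT8, KDM4E, SETD1B and SIRT7.

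The deacetylases were considered next. Of the 11 HDAC genes, HDAC9 (ENSG00000048052) was listed in HepG2 cells, and HDAC3 (ENSG00000171720) and HDAC5 (ENSG00000108840) were listed in Huh7 cells, so that no HDAC gene was common to both. This makes 9.09% (HepG2) and 18.2% (Huh7) of HDAC genes, against 23.9% and 21.9% of all protein-coding genes, of which 11.4% were common to both. HDAC3 is the catalytic subunit of the NCOR corepressor complexes, whereas HDAC5 and HDAC9 are class IIa enzymes, which shuttle between cytoplasm and nucleus and bind MEF2 factors. The class I enzymes HDAC1, HDAC2 and HDAC8, the class IIa enzymes HDAC4 and HDAC7, the class IIb enzymes HDAC6 and HDAC10, and HDAC11 of class IV were listed in neither. HDAC1 and HDAC2 are the catalytic subunits of the SIN3, NuRD and CoREST complexes.

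Sirtuins are deacylases that consume NAD, and 3 of the 7 stood in the HepG2 list against 1 of the 7 in the Huh7 list (42.9% and 14.3%, where all protein-coding genes stood at 23.9% and 21.9%). SIRT1 (ENSG00000096717), a nuclear deacetylase of histones and of transcription factors such as p53, and SIRT6 (ENSG00000077463), a chromatin-bound deacetylase of histone H3, were listed in HepG2 cells only. SIRT4 was listed in both. SIRT2, which is mainly cytoplasmic, SIRT3 and SIRT5, which are mitochondrial, and the nucleolar SIRT7 were listed in neither.

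Demethylases followed. JmjC demethylases were listed in 7 of 18 cases in HepG2 cells (38.9%) and in 3 of 18 cases in Huh7 cells (16.7%), and the flavin-dependent amine oxidases KDM1A and KDM1B in neither. The shares of all protein-coding genes were 23.9% and 21.9%, so that the JmjC share was higher in HepG2 cells and somewhat lower in Huh7 cells. With 18 genes, 1 gene moves these shares by several points, so no opposite pattern of the cell lines can be read from them. In HepG2 cells the genes were KDM4C (ENSG00000107077), an eraser of trimethylation at lysines 9 and 36 of histone H3, KDM4F (ENSG00000255855), KDM5C, KDM6A (ENSG00000147050), KDM6B, KDM7A (ENSG00000006459) and KDM8 (ENSG00000155666). In Huh7 cells they were KDM5B (ENSG00000117139), KDM5C and KDM6B. KDM5B and KDM5C act on lysine 4 of histone H3, and KDM6A and KDM6B on lysine 27. KDM2A, KDM2B, KDM3A, KDM3B, KDM4A, KDM4B, KDM4D, KDM4E, KDM5A and KDM5D were listed in neither.

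The call of KDM4F is uncertain. Only 84.8% of its transcript sequence, cut into stretches of 75 bases, was found in no other gene's transcripts. Part of its reads could therefore come from near-identical copies. It stood under 10 GO terms, the fewest of the listed enzyme genes (SIRT1 stood under 906, the most). That number reflects how richly a gene is annotated and does not bear on the call. Of the 27 genes listed in either cell line, KDM4F and KAT14 (85.6%) were the 2 with a value under 90%.

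**Figure D2:**
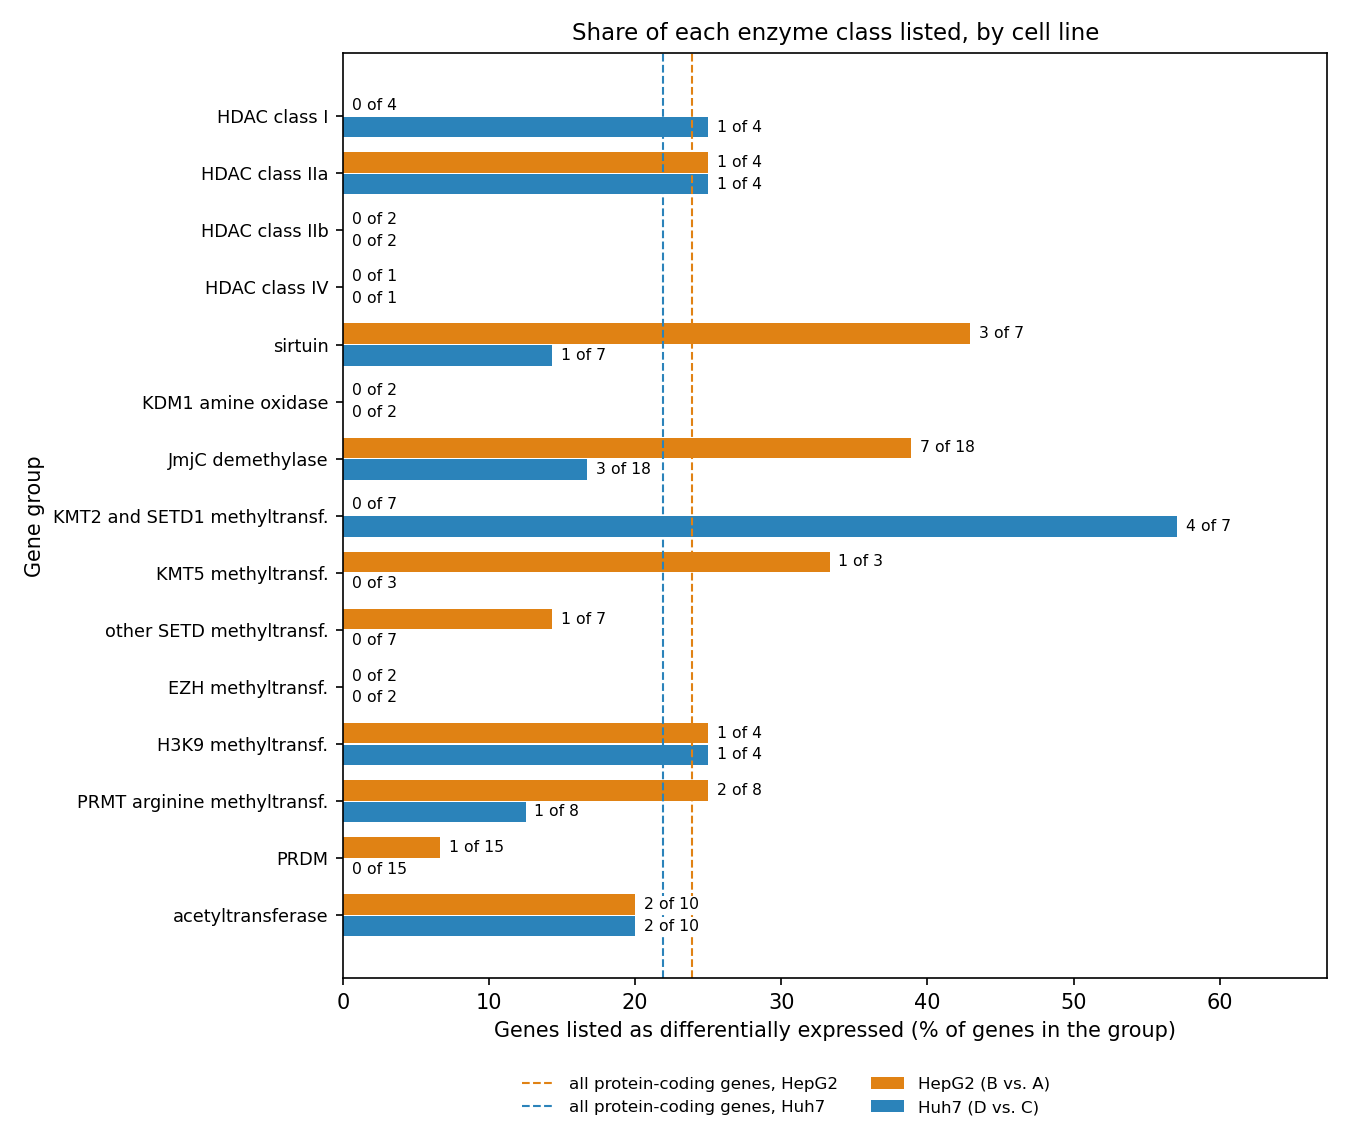
Bars give the percentage of the genes of each enzyme class that were listed in HepG2 cells (orange, group B vs. A) and Huh7 cells (blue, group D vs. C), with the number of genes beside each bar, and dashed lines give the percentage of all protein-coding genes (23.9% and 21.9%). The KMT2 and SETD1 class stood at 0 of 7 and 4 of 7, and the JmjC class at 7 of 18 and 3 of 18; most classes hold under 10 genes, so that 1 gene moves a bar far.

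The KMT2 and SETD1 enzymes are the catalytic subunits of the COMPASS complexes, which methylate lysine 4 of histone H3 at promoters and enhancers; KMT2E, the remaining gene of the class, has no established methyltransferase activity. The HepG2 list held 0 of the 7 genes, whereas the Huh7 list held 4 (57.1%, with 23.9% and 21.9% of all protein-coding genes in the lists), namely KMT2B (ENSG00000272333), KMT2D (ENSG00000167548), SETD1A (ENSG00000099381) and SETD1B (ENSG00000139718). KMT2B is the paralog of KMT2A, and KMT2D that of KMT2C. KMT2A, KMT2C and KMT2E were listed in neither. Among the erasers of the same mark, KDM5C was listed in HepG2 cells and KDM5B and KDM5C in Huh7 cells, of the 6 genes KDM1A, KDM1B and KDM5A to KDM5D. Among these genes, therefore, both writers and erasers of lysine 4 methylation were listed in Huh7 cells, whereas in HepG2 cells 1 eraser was. Genes outside the symbol rule were not counted, among them SMYD3 (listed in both) and COMPASS subunits. Of the latter, ASH2L and PAXIP1 were listed in HepG2 cells and HCFC1 in Huh7 cells.

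At lysine 27 of histone H3, KDM6A and KDM6B were counted as erasers. Both were listed in HepG2 cells and KDM6B in Huh7 cells. The writers EZH1 and EZH2, the catalytic subunits of the Polycomb complex PRC2, were listed in neither. At lysine 9, SUV39H2 was the only one of 4 writers listed, in both cell lines, with SUV39H1, EHMT1 and EHMT2 absent from both lists. Of 8 genes counted as erasers of this mark (KDM3A, KDM3B, KDM4A to KDM4E and KDM7A), KDM4C and KDM7A were listed in HepG2 cells. The Huh7 list held 0 of the 8. KDM4F, listed in HepG2 cells, was not counted. Genes outside the symbol rule were not counted either, among them JMJD1C (listed in HepG2 cells), PHF8 (Huh7 cells) and HR (both). For lysine 20 of histone H4, KMT5C (ENSG00000133247), which adds the trimethyl mark of heterochromatin, was listed in HepG2 cells only, and KMT5A and KMT5B in neither. This grouping by substrate was made after the lists had been seen. The HepG2 list took in 23.9% of all protein-coding genes and the Huh7 list 21.9%, with 11.4% shared. The lysine 9 writers (25% in each line) and HepG2 erasers (25%) lay near these shares, and the Huh7 erasers (0 of 8) below. The lysine 27 erasers lay above and the writers below, with 2 genes each. Groups of 2 to 8 genes are too small for a pattern of writers and erasers to be read from them.

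The other SETD genes contributed 1 of 7 (14.3%), SETD5 (ENSG00000168137) in HepG2 cells. Among all protein-coding genes the shares were 23.9% for HepG2 cells and 21.9% for Huh7 cells. SETD2, the enzyme that trimethylates lysine 36 of histone H3, and SETD3, SETD4, SETD6, SETD7 and SETD9 were listed in neither. Of the 8 PRMT genes, PRMT6 (ENSG00000198890), which methylates arginine 2 of histone H3, was listed in HepG2 cells only and PRMT7 in both. This makes 2 of 8 (25%) and 1 of 8 (12.5%). PRMT1 and PRMT5, the main enzymes for asymmetric and symmetric dimethylarginine, were listed in neither, as were PRMT2, PRMT3, PRMT8 and PRMT9.

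Listed genes were few among the PRDM genes. PRDM12 (ENSG00000130711), a regulator of sensory neuron development, was listed in HepG2 cells, and none of the 15 genes was listed in Huh7 cells. The other 14 were listed in neither, among them PRDM1, a repressor known from plasma cell differentiation. Several PRDM genes are known for restricted expression, PRDM9 for example in meiotic cells, and a gene without reads cannot be called; whether the cells expressed them was not tested. Without the PRDM genes, the HepG2 list held 22.8% of 79 enzyme genes and the Huh7 list 17.7%. The HepG2 value is near the 23.9% of all protein-coding genes and above the 21.6% of the GO background. The Huh7 value is below the corresponding 21.9% and 19.7%.

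Acetyltransferases were listed in 2 of 10 cases in each cell line (20%) and 1 of 10 in both (10%). These values are near the 23.9% (HepG2), 21.9% (Huh7) and 11.4% (both) of all protein-coding genes. KAT14 was listed in both, KAT2A (ENSG00000108773, also known as GCN5) in HepG2 cells and KAT2B (ENSG00000114166, PCAF) in Huh7 cells. KAT2A and KAT2B are paralogs that take the same place in the SAGA and ATAC complexes, and KAT14 is a further subunit of ATAC, so that in each cell line the listed genes were KAT14 and 1 of the 2 paralogs. The broadly acting coactivators EP300 and CREBBP were listed in neither, as were the MYST family genes KAT5, KAT6A, KAT6B, KAT7 and KAT8.

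The enzyme genes were then read through GO terms on chromatin modification, with each term's listed genes divided by its background genes. Of the 21 terms examined, 6 had a larger share in HepG2 cells than the whole GO background (21.6%) and 2 had a larger share in Huh7 cells (19.7%). The terms share many genes. Histone modification held 88 of 464 genes from the HepG2 list (19%) and 65 of 464 from the Huh7 list (14%), of which 17 and 12 were among the 94 enzyme genes. Histone demethylase activity was the highest term in HepG2 cells, with 9 of 28 genes (32.1%), and held 6 of 28 in Huh7 cells (21.4%). Histone demethylation held 9 and 7 of 31 genes (29% and 22.6%) and was the highest term in Huh7 cells. Both of these terms were above the GO background in HepG2 cells and close to it in Huh7 cells (21.4% and 22.6% against 19.7%). They largely repeat the JmjC class. For HepG2, 6 of the 9 genes listed under each term were JmjC genes already counted. For Huh7, 3 of the 6 and 3 of the 7 were. The JmjC class itself stood at 16.7% in Huh7 cells, so no raised share of demethylases is read from these terms there.

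The 2 terms for histone methyltransferase activity were ordered the other way round, unlike those for arginine methyltransferases. Histone-lysine N-methyltransferase activity held 5 of 51 genes from the HepG2 list (9.80%) and 9 of 51 from the Huh7 list (17.6%). The 9 genes included KMT2B, KMT2D, SETD1A, SETD1B and SUV39H2, and the 5 genes included KMT5C and SUV39H2. Histone methyltransferase activity held 7 and 10 of 62 genes (11.3% and 16.1%). The whole GO background itself had a larger share in HepG2 cells (21.6%) than in Huh7 cells (19.7%), so a larger HepG2 share alone sets no term apart. In each of the other 19 terms the share was larger in HepG2 cells. For example, histone acetylation held 36 of 154 genes (23.4%, HepG2) and 19 of 154 (12.3%, Huh7), and histone deacetylase activity held 5 and 3 of 42 genes (11.9% and 7.14%). NAD-dependent protein deacetylase activity held HDAC9, SIRT1 and SIRT6 in HepG2 cells and HDAC3 and HDAC5 in Huh7 cells, although HDAC enzymes depend on zinc and not on NAD. It did not hold SIRT4, so this term is no measure of the sirtuins.

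**Figure D3:**
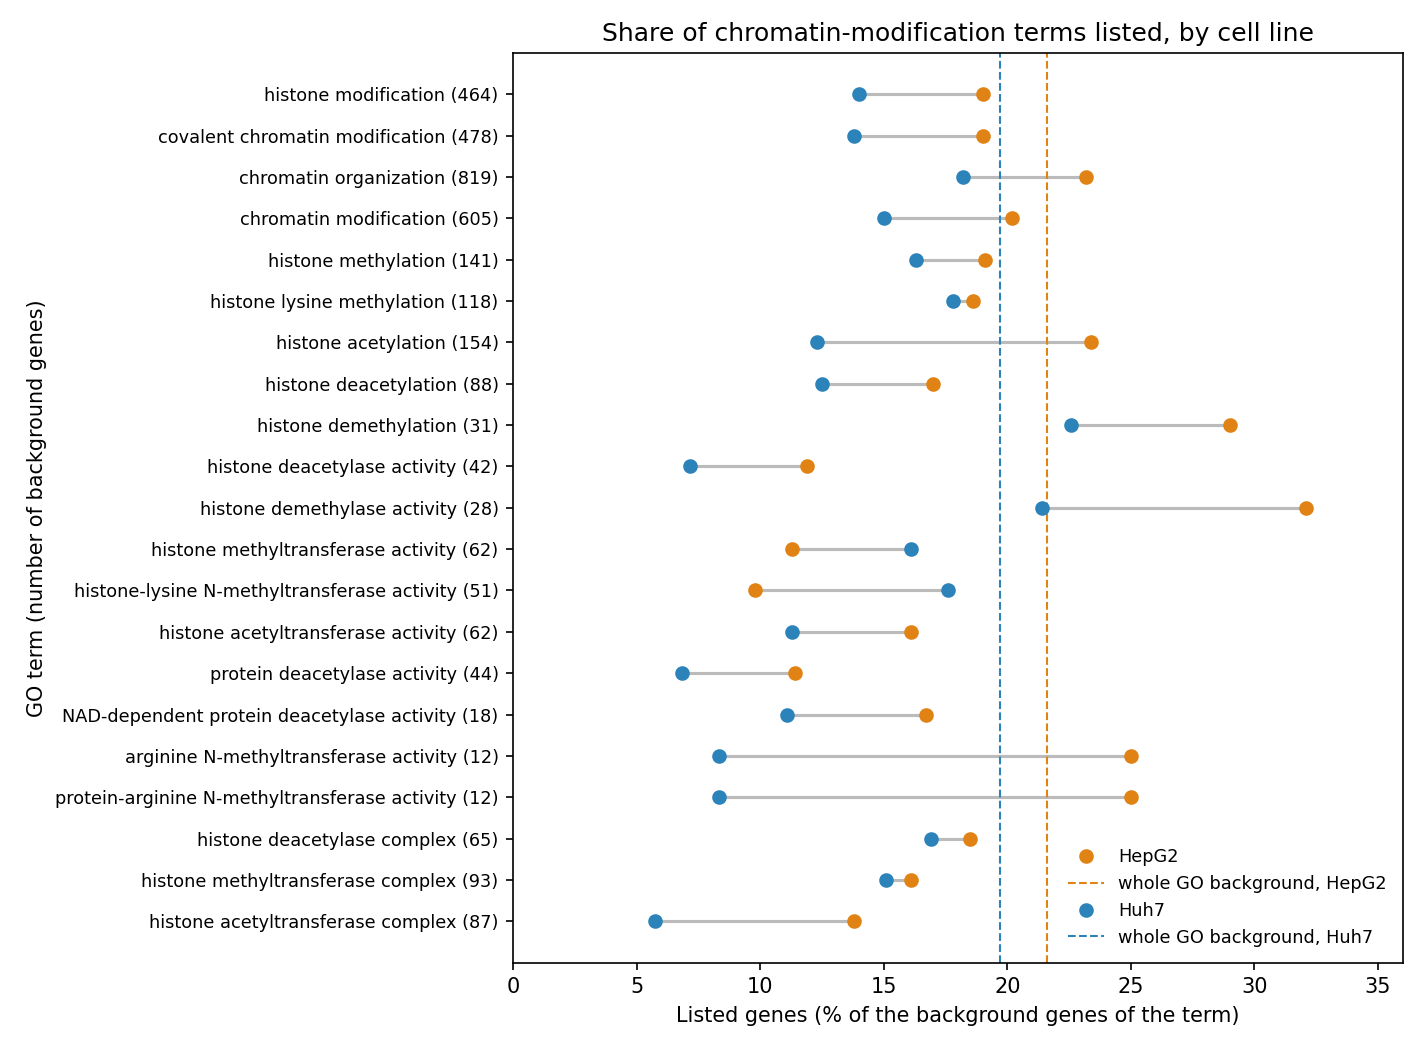
Points give the listed genes of each GO term as a percentage of its background genes (number in parentheses) in HepG2 cells (orange) and Huh7 cells (blue), and dashed lines give the percentage over the whole GO background (21.6% and 19.7%). The blue point lies to the right of the orange point in the 2 terms for histone methyltransferase and histone-lysine N-methyltransferase activity.

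In the KEGG tables, which hold only genes assigned to a pathway, 6 of the 94 enzyme genes were found for HepG2 cells, where 8.46% of all protein-coding genes were, and 8 of the 94 for Huh7 cells, where 8.19% were. All of them were also in the GO lists. Lysine degradation, which includes the histone lysine methyltransferases, held 13 of 51 genes in HepG2 cells, among them KMT5C and SUV39H2, and 11 of 51 in Huh7 cells, among them KMT2B, KMT2D, SETD1A, SETD1B and SUV39H2. Enzyme genes were thus 5 of the 11 listed genes of this pathway in Huh7 cells and 2 of the 13 in HepG2 cells. How many of the 51 genes were enzyme genes was not counted, so these numbers have no base. The 8.46% and 8.19% also count genes without a pathway, so they are no base for the share of a pathway that was listed. Viral carcinogenesis held 59 and 55 of 206 genes, with HDAC9 and KAT2A in HepG2 cells and HDAC3, HDAC5 and KAT2B in Huh7 cells.

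At equal abundance a longer transcript gives more reads, and the enzyme genes have long transcripts. The longest transcript had a median of 4694 bases over the 94 genes and of 3157 bases over all protein-coding genes. Among all protein-coding genes the share listed rose with length, from 22.4% for transcripts up to 3092 bases to 27.9% for those over 7292 bases in HepG2 cells, and from 20.8% to 24.5% in Huh7 cells. The enzyme genes ran against this order in HepG2 cells, with 8 of 24 listed in the shortest range (33.3%), 5 of 23 and 4 of 23 in the middle ranges and 2 of 24 in the longest (8.33%). In Huh7 cells 3 of 24, 2 of 23, 5 of 23 and 4 of 24 were listed. Weighted to the lengths of the enzyme genes, the share of all protein-coding genes was 25.1% (HepG2) and 22.6% (Huh7). The genes listed in HepG2 cells only had a median of 3109 bases and those in Huh7 cells only of 7318 bases, of which KMT2D had the longest transcript (19419 bases). The part of transcript length in these lists was not tested.

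**Figure D4:**
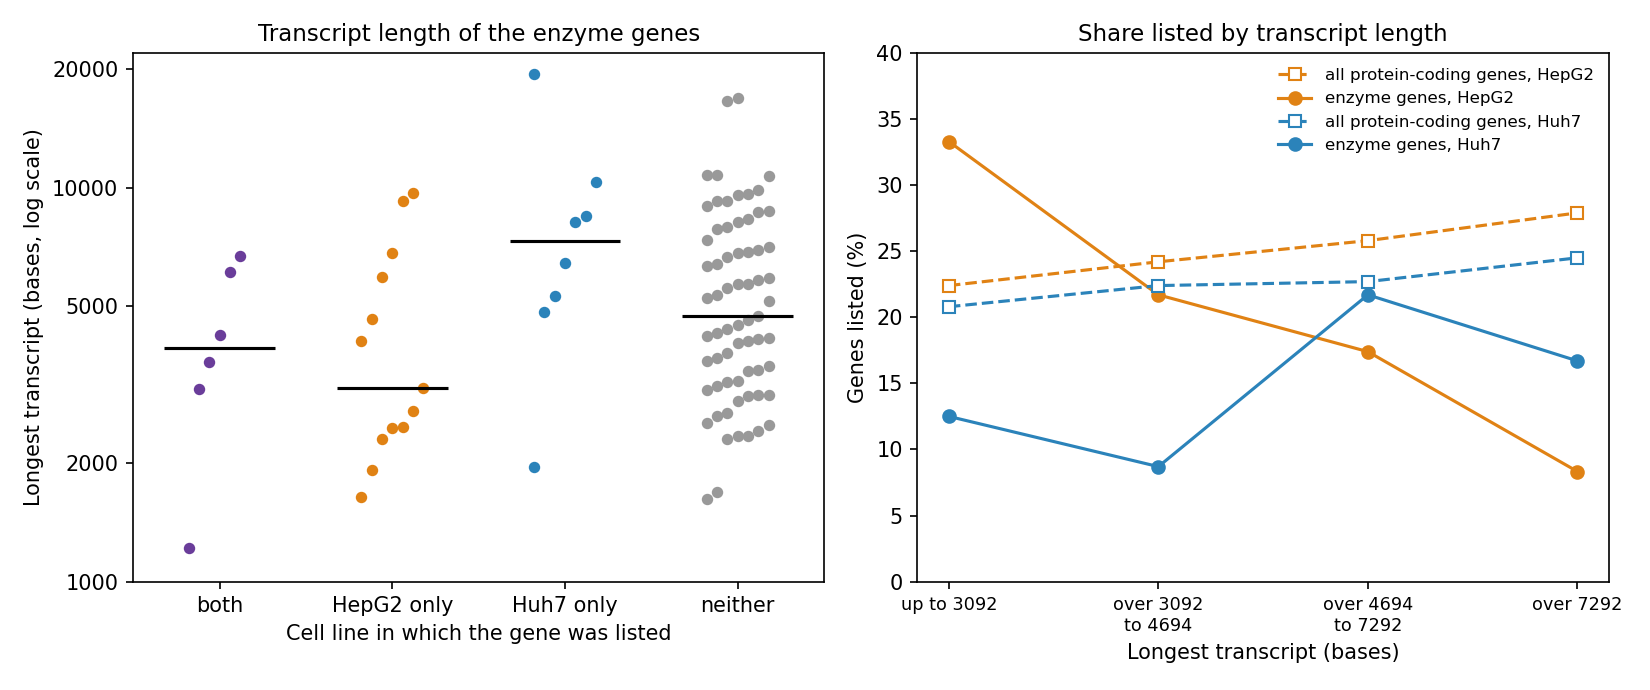
The left panel gives the longest transcript of each enzyme gene in bases (log scale) by the cell line in which it was listed, with the median as a line. The right panel gives the percentage of genes listed in 4 ranges of transcript length, for the enzyme genes (filled circles) and all protein-coding genes (open squares); the open squares rise from left to right and the filled orange circles fall from 33.3% to 8.33%.

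Further chromatin genes outside the symbol rule, in 6 groups of 104 genes in all, were listed in 20 cases in HepG2 cells (19.2%) and 19 in Huh7 cells (18.3%), with 11 in both (10.6%). All protein-coding genes stood at 23.9%, 21.9% and 11.4%, so that the share in both was near that of all genes. Of 24 other histone-modifying enzymes, 5 stood in the HepG2 list (20.8%) and 7 in the Huh7 list (29.2%). SMYD3, MECOM, JMJD6 and HR were in both (16.7%). The Huh7 and shared values lay above those of all protein-coding genes, whereas those of the enzyme genes chosen by symbol lay below (14.9% and 6.38%). The low values are therefore not shown for histone-modifying enzymes at large, although 24 genes are few. Of 9 subunits of PRC2 other than the EZH enzymes, PHF19 was listed in both cell lines and PHF1 in Huh7 cells, whereas the core subunits EED and SUZ12 were listed in neither, as were EZH1 and EZH2. Of 12 COMPASS subunits, ASH2L and PAXIP1 were listed in HepG2 cells and HCFC1 in Huh7 cells. The shared core subunits WDR5, RBBP5 and DPY30 were listed in neither.

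Corepressor subunits that work with HDAC enzymes were listed in 4 of 25 cases (16%, HepG2) and 3 of 25 cases (12%, Huh7). The shares of all protein-coding genes were 23.9% and 21.9%. RCOR2 and TBL1XR1 were in both (8%, against 11.4% of all protein-coding genes). TBL1XR1 is a partner of HDAC3, which was listed in Huh7 cells only. Readers of acetyl-lysine and methyl-lysine were listed in 6 and 5 of 25 cases (24% and 20%), near the shares of all protein-coding genes. Among those in both were L3MBTL3 and CBX5, a heterochromatin protein that binds methylated lysine 9 of histone H3. Of 9 DNA methylation genes, UHRF1, which recruits DNMT1 to hemimethylated DNA, was in both and TET1 in HepG2 cells only, and DNMT1, DNMT3A and DNMT3B were in neither. Genes of these groups that were absent from at least 1 of the lists were named after the lists had been seen.

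**Figure D5:**
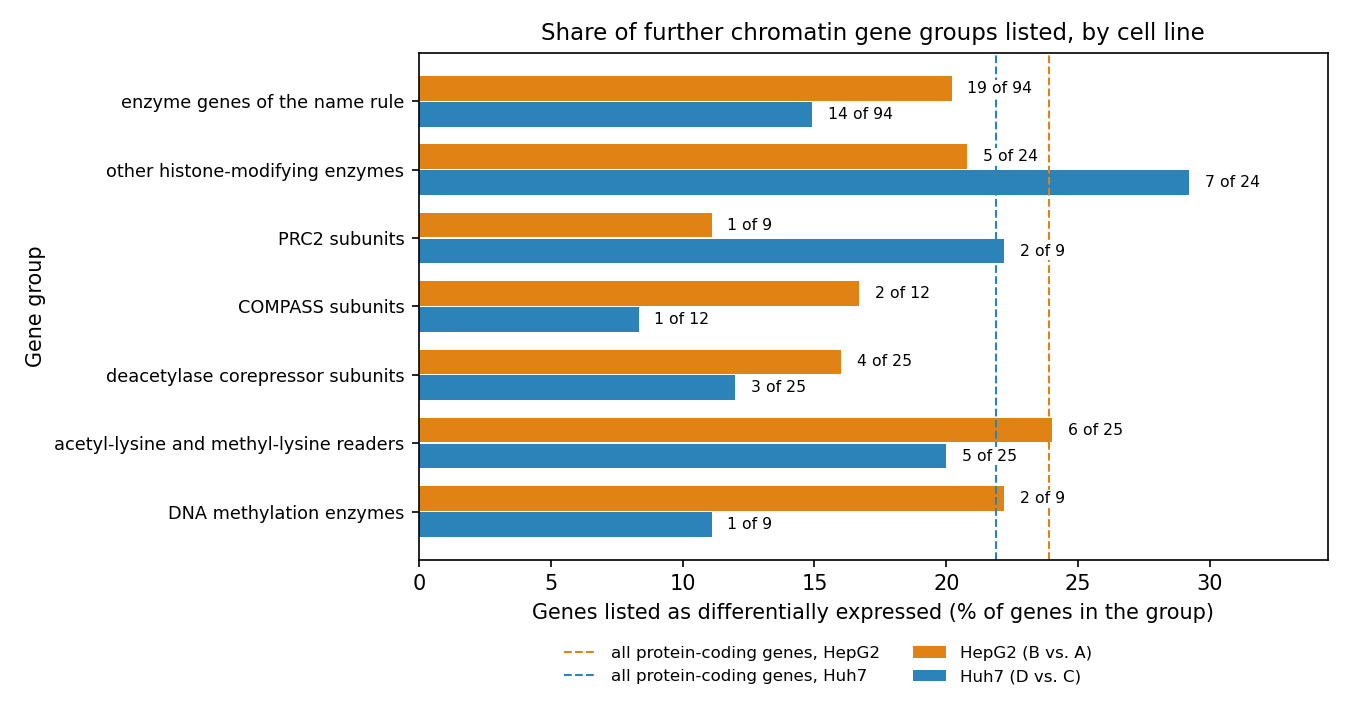
Bars give the percentage of genes listed in HepG2 cells (orange) and Huh7 cells (blue) for the 94 enzyme genes and 6 further groups of chromatin genes, with the number of genes beside each bar and the percentage of all protein-coding genes as dashed lines (23.9% and 21.9%). The enzyme genes lie left of both lines, at 20.2% and 14.9%.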

How the data were processed

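Total RNA from 4 libraries was depleted of ribosomal RNA and sequenced from directional libraries. The submitters' processing notes name HISAT2, Bowtie2 2.2.8, StringTie 1.3.1 and Cuffdiff 2.1.1, without a role for each. The genome build and annotation behind the lists are not given in the sources used here and neither is the depth of each library. The study's methods describe Cuffdiff for differential expression and its results name another tool, so which tool made the lists is unclear. The authors called mRNAs differentially expressed at an adjusted p-value under 0.05 and grouped them by GO term and KEGG pathway. The deposited tables give, per term, the gene identifiers and the numbers of listed and background genes. Their p-value columns hold the authors' own enrichment results and were not used.

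Here, identifiers were matched to GENCODE release 29, and genes, terms and pathways were counted (python 3.11.15, pandas 2.3.3, numpy 2.4.6), with figures drawn in matplotlib 3.10.9. Counting was tested on simulated lists. Samples were grouped by their labels. Every enzyme gene is accounted for by class. Genes of the other lists were to be named where listed in both cell lines, and pathways where they held at least 3 enzyme genes in either. The members and lists were chosen with earlier results of these data known. A 75-base stretch counted as unique when no transcript of another gene held it. Alternatives were the KEGG tables, biological process terms alone, other backgrounds and other gene sets. Some genes are counted but not reported by name here.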

Additional observations from a re-analysis of the deposited data

How the results depend on the processing

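With the KEGG tables in place of the GO tables, the enzyme genes listed numbered 6 (HepG2), 8 (Huh7) and 1 (both lines), since these tables hold only genes with a pathway. With the other histone-modifying enzymes added, 24 (HepG2), 21 (Huh7) and 10 (both lines) of 118 genes were listed. These were 20.3%, 17.8% and 8.47%, still below the 23.9%, 21.9% and 11.4% of all protein-coding genes. The share of all genes listed was 21.6% (HepG2) and 19.7% (Huh7) over the GO background, and 25.1% and 22.6% when weighted to the transcript lengths of the enzyme genes. Biological process terms alone gave 18, 14 and 6 genes, without KDM4F. Restriction to the 87 genes with at least 90% unique stretches, chosen after seeing the data, gave 17, 13 and 5. Among the counts by class, 80 stayed within 1.5 times of their value and 10 moved, all under the KEGG tables. Many of the 80 could not move, so their number is no measure of stability. All enzyme genes in the KEGG tables were also in the GO lists, so joining the 2 kinds of table changed nothing. A class with no listed gene also stays without one under a narrower table. No paired analysis was possible because each group had 1 library, and for the same reason no replicate could be left out. The depth of each library is not given in the sources used here, so an unlisted gene may have been unchanged, unexpressed or too thinly covered.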
